A study of Mus musculus with 4 samples.

Results

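The 8 genes described here encode parts of the machinery with which striatal neurons respond to dopamine. They are the dopamine receptor genes Drd1a and Drd2, the adenosine receptor gene Adora2a, the orphan receptor gene Gpr6, the neuropeptide precursor gene Tac1, and 3 genes of intracellular signalling, Ppp1r1b, Rgs9 and Pde10a. The genes were chosen by name, and all 8 were found among the 23466 gene symbols of the deposited table. They filled 9 of its 31315 transcript records, because Rgs9 had 2, and each gene was represented by the record with the highest mean over the libraries. RNA came from hippocampus at postnatal day 30 of C57BL/6N mice. The mutant libraries, 38 and 39, are titled ko, and their condition field names a conditional het with Atp6ap2 and Camk2aCre/0. The wild-type libraries, 11 and 73, have the same strain and age, and the labels name no allele for them. The Camk2a promoter drives Cre in excitatory neurons of the forebrain, so that the targeting leaves out glia and most inhibitory neurons. The labels do not say whether a library came from 1 animal or from several, so the error given below refers to libraries and not to animals. It is a moderated error, which draws on the variance of other genes besides the spread between these libraries.

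In the striatum, dopamine acts on 2 kinds of spiny projection neuron. Neurons of the direct pathway carry the D1 receptor, which raises cyclic AMP, and make substance P from Tac1. Neurons of the indirect pathway carry the D2 receptor, which lowers cyclic AMP, together with the adenosine receptor of Adora2a and Gpr6, which raise it. Both kinds hold DARPP-32, the phosphatase inhibitor encoded by Ppp1r1b, the G protein brake Rgs9 and the cyclic nucleotide phosphodiesterase Pde10a. The hippocampus has no such projection neurons but receives some dopamine, and its own neurons express several of these genes.

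Levels are scaled read equivalents, which are aligned bases over a transcript divided by the authors' scaling factor and by the 42 bases that 1 read adds. Before scaling, the libraries held between 10023033 (wild-type 73) and 18339838 (wild-type 11) read equivalents over genes. All 5 hippocampal excitatory markers examined, Camk2a, Neurod2, Neurod6, Slc17a7 and Zbtb20, were present in every library, and their summed level lay between 46911 (mutant 38) and 54034 (wild-type 73). The 4 neocortex markers examined were also present in every library, with sums between 2399 (wild-type 11) and 3364 (wild-type 73). The targeted gene, Atp6ap2, had 2551 and 2522 scaled read equivalents in mutants 38 and 39, against 2312 and 2637 in wild-types 11 and 73. The groups overlapped, and this sum over the whole transcript does not check the labels, which do not name the deleted exons. Choroid plexus markers were high in mutant 38 and wild-type 11, and thalamus markers in mutant 38, so each of the 8 genes is also given without mutant 38 and within matched pairs. Below, fold changes are mutant over wild-type on the log2(read equivalents + 1) scale, the value after ± is limma's moderated standard error with 2 libraries in each group, and p-values are adjusted over 18127 genes.

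No difference between mutant and wild-type passed the test for any of the 8 genes, each with a limma adjusted p of 0.989. With limma, 0 of 8 had an adjusted p below 0.05, where 0.00552% of all genes tested did, and 0 of 8 had an unadjusted p below 0.05, where 3.94% did. In the authors' deposited table, 0 of the 9 records had a p below 0.05, where 1.74% of all records did, and the p of the main records ran from 0.371 (Rgs9) to 0.730 (Tac1). The log2 fold changes of the 8 genes ran from -0.39 (Gpr6) to 0.53 (Adora2a), with a median of 0.12 over the members and 0.01 over all genes tested. The groups did not overlap for 4 of the 8 genes, where 33.3% of all genes tested did not overlap. Adora2a lay on the higher side, as did 16.8% of all genes, and Rgs9, Tac1 and Gpr6 lay on the lower side, as did 16.5%. With 2 against 2 libraries, an exact two-sided permutation test cannot give a p below 0.333. In tissue of many cell types, fewer cells of a type and less RNA per cell cannot be told apart.

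**Figure D1:**
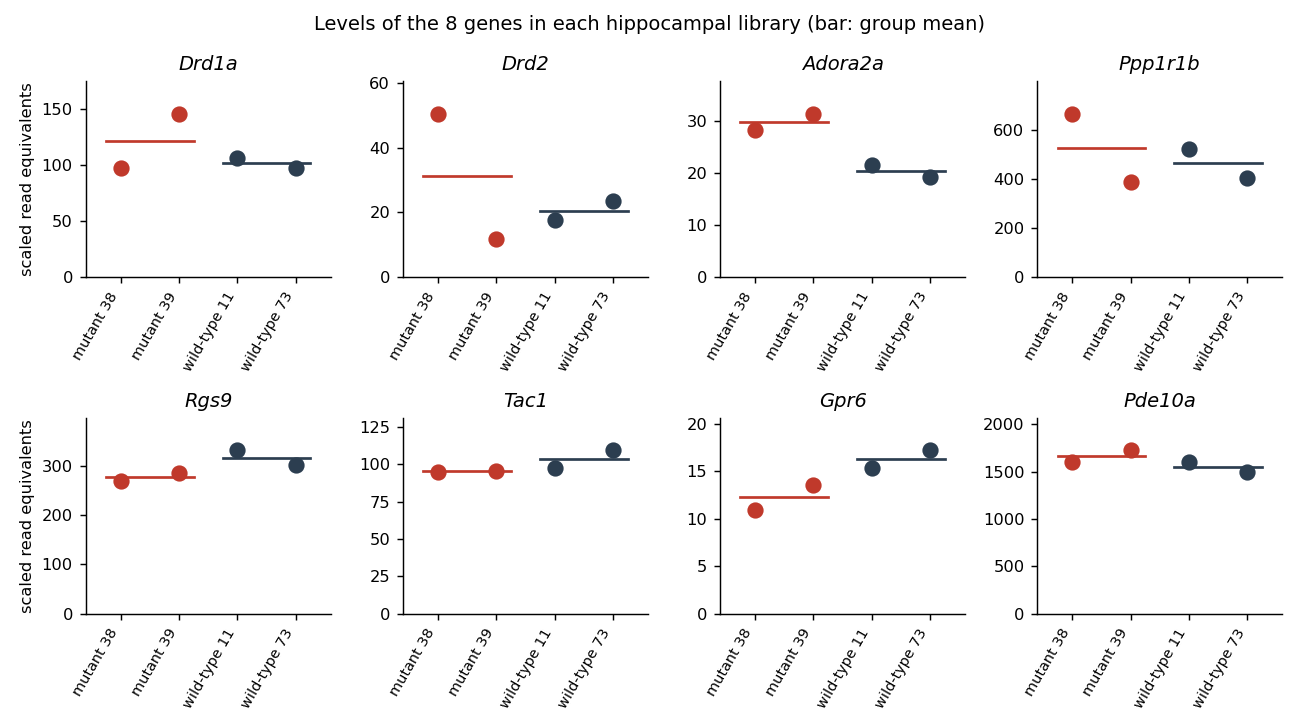
Scaled read equivalents of the 8 genes (y axis, from 0) in mutants 38 and 39 (red, left) and wild-types 11 and 73 (dark, right), 1 point for each library, with a bar at each group mean. Mutant 38 stands above the other libraries for Drd2 (50.6) and Ppp1r1b (664), and both mutants lie above both wild-types for Adora2a.

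Among the receptors, Drd1a, the D1 receptor that couples to the stimulatory G protein, had 97.0 and 146 scaled read equivalents in mutants 38 and 39, against 106 and 97.4 in wild-types 11 and 73. Mutant 39 was the high library, and mutant 38 lay below both wild-types. Its log2 fold change was 0.23 ± 0.25 (95% interval -0.37 to 0.82), and it was 0.52 without mutant 38 and -0.066 without mutant 39.

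Drd2, the inhibitory D2 receptor, was the most variable of the 8 genes, with 50.6 and 11.7 scaled read equivalents in mutants 38 and 39, against 17.5 and 23.4 in wild-types 11 and 73. Both extremes were mutants, 4.31-fold apart, and the wild-types lay between them. The log2 fold change was 0.27 ± 0.64 (95% interval -1.26 to 1.80), and it was -0.74 without mutant 38, 1.28 without mutant 39, 0.07 without wild-type 11 and 0.47 without wild-type 73. Before scaling, these levels rested on 59.9 and 13.0 read equivalents in the mutants and on 21 and 15.0 in the wild-types.

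Adora2a, whose product opposes D2 signalling in neurons of the indirect pathway, had 28.4 and 31.5 scaled read equivalents in mutants 38 and 39, against 21.7 and 19.3 in wild-types 11 and 73. Both mutants lay above both wild-types, and the gap within each group was smaller than the gap between the groups. The log2 fold change was 0.53 ± 0.33 (95% interval -0.25 to 1.31), and it was 0.60 without mutant 38. The gene had 33.7 and 34.9 read equivalents before scaling in the mutants, against 25.9 and 12.3 in the wild-types.

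Gpr6, an orphan receptor that is active without a known ligand, had 10.9 and 13.5 scaled read equivalents in mutants 38 and 39, against 15.3 and 17.2 in wild-types 11 and 73. Both mutants lay below both wild-types. Its log2 fold change was -0.39 ± 0.39 (95% interval -1.32 to 0.55), and it was -0.24 without mutant 38. Before scaling, the gene had between 11 (wild-type 73) and 18.3 (wild-type 11) read equivalents. The 3 genes of the indirect pathway thus did not share a pattern over the libraries: Drd2 was highest in mutant 38 and lowest in mutant 39, Adora2a was high in both mutants, and Gpr6 was low in both.

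Tac1, the precursor of substance P and neurokinin A, is also made by some hippocampal interneurons. It had 94.8 and 95.7 scaled read equivalents in mutants 38 and 39, against 97.4 and 109 in wild-types 11 and 73. The mutants lay below the wild-types by a margin smaller than the gap between the wild-types, with a log2 fold change of -0.11 ± 0.20 (95% interval -0.60 to 0.37). It was -0.11 without mutant 38, -0.20 without wild-type 11 and -0.03 without wild-type 73.

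Ppp1r1b encodes DARPP-32, which inhibits protein phosphatase 1 once protein kinase A has phosphorylated it. It had 664 and 386 scaled read equivalents in mutants 38 and 39, against 522 and 401 in wild-types 11 and 73. As with Drd2, the mutants held both the highest and the lowest level. The log2 fold change was 0.15 ± 0.26 (95% interval -0.47 to 0.76). It was -0.25 without mutant 38, 0.54 without mutant 39, 0.34 without wild-type 11 and -0.05 without wild-type 73, so that its direction depended on single libraries.

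Pde10a, the phosphodiesterase that breaks down cyclic AMP and cyclic GMP, had 1602 and 1725 scaled read equivalents in mutants 38 and 39, against 1607 and 1500 in wild-types 11 and 73. It varied least of the 8, by 1.15-fold from the lowest to the highest library. The groups overlapped, and its interval was also the narrowest, with a log2 fold change of 0.10 ± 0.10 (95% interval -0.14 to 0.34). It was 0.15 without mutant 38 and 0.05 without mutant 39 or without wild-type 73.

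**Figure D2:**
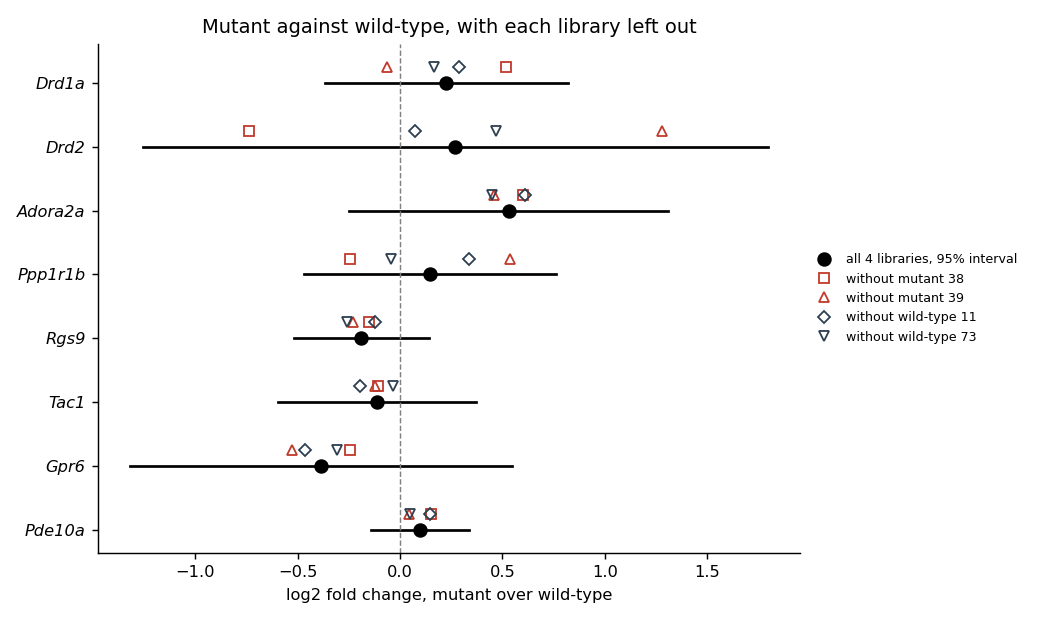
Log2 fold change of mutant over wild-type (x axis) for each gene, as a point with its 95% interval from limma over 4 libraries, and the value with each library left out as an open symbol (red for a mutant, dark for a wild-type left out). All 8 intervals span 0, and the open symbols fall on both sides of 0 for Drd1a, Drd2 and Ppp1r1b.

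Rgs9 encodes a GTPase-activating protein that shortens the signal of inhibitory G proteins, and its 2 records end differently. The record with the higher level ends after 484 codons, as does the form known as RGS9-1 from the retina. The other has 675 codons and the long tail of RGS9-2, the form known from the striatum. The records share 1470 bases. The stretch below starts with the last 12 shared bases in lower case and goes on in capitals with the next 57 bases of each record, which for the short form are the rest of its coding sequence with the stop codon. Both are shown because the level of Rgs9 depends on which end is counted. They are GENCODE M21 transcripts of mouse build GRCm38, chromosome 11, minus strand, matched to the records by RefSeq accession.
Rgs9, short coding end: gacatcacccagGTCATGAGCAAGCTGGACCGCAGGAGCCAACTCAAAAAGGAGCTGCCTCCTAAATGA
Rgs9, long coding end: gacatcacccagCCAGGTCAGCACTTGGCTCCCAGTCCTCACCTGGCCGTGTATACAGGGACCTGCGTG

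For the short record, Rgs9 had 270 and 285 scaled read equivalents in mutants 38 and 39, against 332 and 302 in wild-types 11 and 73. For the long record it had 158 and 212 in mutants 38 and 39, against 203 and 193 in wild-types 11 and 73. The short record was thus the higher one in every library, by 1.71-fold and 1.34-fold in mutants 38 and 39 and by 1.64-fold and 1.57-fold in wild-types 11 and 73. Where reads over shared bases count in both records, the difference between them comes from the 843 bases that only the short record has and the 964 that only the long one has. At least 41.6% and 25.4% of the short record's level in mutants 38 and 39, and at least 38.9% and 36.2% in wild-types 11 and 73, therefore lay in its own 843 bases. Those bases follow the last shared exon directly and are part of an intron of the long transcript. In ribosome-depleted total RNA, reads of the short form and of unspliced long transcripts cannot be told apart there.

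Between the groups, the short record had both mutants below both wild-types, with a log2 fold change of -0.19 ± 0.14 (95% interval -0.52 to 0.14). It was -0.15 without mutant 38 and -0.12 without wild-type 11. For the long record the groups overlapped, since mutant 39 was the highest library and mutant 38 the lowest. Its log2 fold change was -0.11 ± 0.20 (95% interval -0.57 to 0.35), with a limma adjusted p of 0.986 over all records. The non-overlap of Rgs9 thus holds for the short record and not for the long one.

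Levels of different genes were compared per kilobase of the GENCODE M21 transcript with the record's RefSeq accession. Over the 4 libraries, Ppp1r1b averaged 247 scaled read equivalents per kilobase, followed by Pde10a with 207, Rgs9 (short record) with 128, Tac1 with 80.7, Drd1a with 31.7, Drd2 with 10.1, Adora2a with 9.71 and Gpr6 with 7.97. The ranges of neighbours overlapped between Ppp1r1b and Pde10a, between Drd2 and Adora2a, and between Adora2a and Gpr6. The 3 genes of the indirect pathway were thus the lowest of the 8. The intracellular genes shared by both striatal pathways were the highest, for Rgs9 only with its short record. Its long record had 64.7 and 87.2 per kilobase in mutants 38 and 39, against 83.3 and 79.2 in wild-types 11 and 73. That overlapped the range of Tac1, 77.1 to 88.8.

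The other dopamine receptors set these levels in context. Drd5, the second D1-like receptor, had 109 and 110 scaled read equivalents per kilobase in mutants 38 and 39, against 108 and 107 in wild-types 11 and 73. That was above Drd1a in every library, by 3.97-fold and 2.67-fold in mutants 38 and 39 and by 3.58-fold and 3.87-fold in wild-types 11 and 73. Drd3 and Drd4, which are D2-like, had at most 2.47 and 1.61 per kilobase, and Drd4 was listed at 0 in wild-type 11. Drd1a in turn exceeded Drd2 per kilobase in every library, by 1.39-fold and 8.99-fold in mutants 38 and 39 and by 4.36-fold and 3.01-fold in wild-types 11 and 73. The lowest and the highest of these ratios were those of the mutants. Between the groups, 0 of the 3 other dopamine receptor genes had an unadjusted p below 0.05, and Drd5 had a log2 fold change of 0.03 ± 0.13 (limma adjusted p = 0.993).

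**Figure D3:**
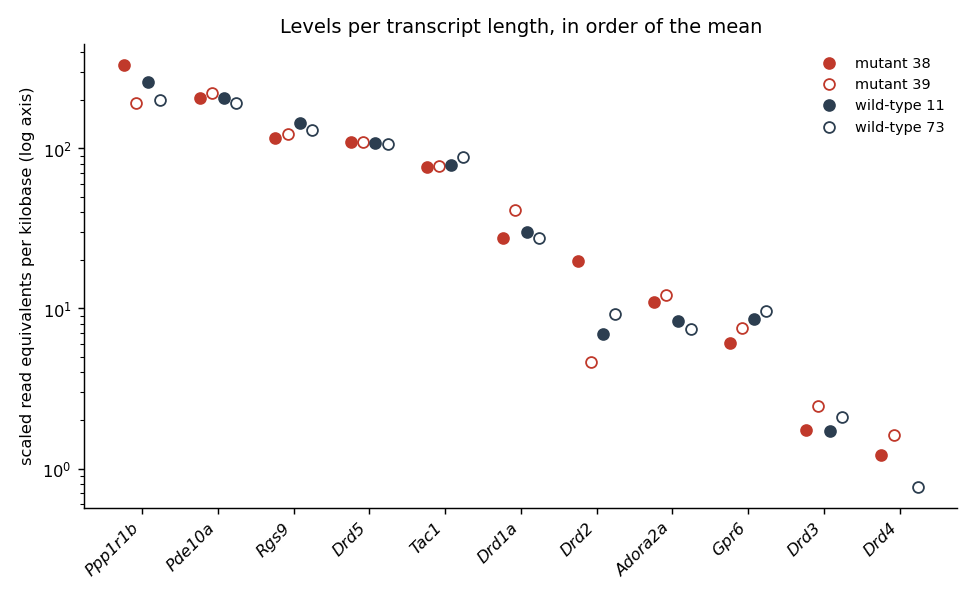
Scaled read equivalents per kilobase of transcript (y axis, log scale) for the 8 genes and the other dopamine receptor genes, ordered by the mean, with 1 point for each library (mutants red, wild-types dark). Drd5 lies above Drd1a in all 4 libraries, and among the 8 genes the libraries spread most for Drd2. Drd4 in wild-type 11 is 0 and is not drawn.

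Mutant 38 stood apart from the other libraries in markers of other tissue. All 9 thalamus markers were highest in it, and their summed level was 5944 and 2375 in mutants 38 and 39, against 2304 and 2233 in wild-types 11 and 73. Of these markers, Gbx2 was at 0 in wild-type 73. Isl1 and Six3, transcription factor genes of developing striatal neurons that were picked after their values were seen, were also highest in mutant 38. Isl1 had 47.2 and 0.903 scaled read equivalents in mutants 38 and 39, against 7.52 and 1.56 in wild-types 11 and 73. Six3 had 32.8 and 1.81 in mutants 38 and 39, against 2.51 and 3.12 in wild-types 11 and 73. Both belong to a list of 24 spiny neuron transcription factors and markers that did not follow them as a whole. Of its genes, 8 were highest in mutant 38 and 6 in mutant 39, and the list summed to 11610 and 11938 in mutants 38 and 39, against 10683 and 11052 in wild-types 11 and 73. Drd2 and Ppp1r1b were also highest in mutant 38, and the part of other tissue in their levels was not tested.

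Choroid plexus markers divided each group, with summed levels of 124744 and 7767 in mutants 38 and 39, against 74819 and 7451 in wild-types 11 and 73. All 14 markers were detected in every library, and all 14 were highest in mutant 38, as were Drd2 and Ppp1r1b. Within the pair rich in them, mutant 38 over wild-type 11, the log2 differences were 1.48 for Drd2, 0.35 for Ppp1r1b, 0.38 for Adora2a, -0.13 for Drd1a, -0.45 for Gpr6, -0.30 for Rgs9, -0.04 for Tac1 and -0.005 for Pde10a. Within the pair poor in them, mutant 39 over wild-type 73, they were -0.94 for Drd2, -0.06 for Ppp1r1b, 0.68 for Adora2a, 0.58 for Drd1a, -0.32 for Gpr6, -0.08 for Rgs9, -0.19 for Tac1 and 0.20 for Pde10a. Drd1a, Drd2, Ppp1r1b and Pde10a thus changed direction between the pairs. The other 4 genes did not, which follows from their groups not overlapping. Summed interneuron markers, by contrast, ranged from 13731 (wild-type 11) to 15319 (mutant 39). The log2 fold changes of the 11 single interneuron markers ran from -0.82 to 0.27. For 7 of 7 oligodendrocyte markers each mutant lay above each wild-type, as did 16.8% of all genes tested. Their sums were 103740 and 91894 in mutants 38 and 39, against 84220 and 61021 in wild-types 11 and 73. All 7 were highest in mutant 38, and 6 had an unadjusted limma p below 0.05, where 2.18% of all genes tested were higher at that level. Adora2a and Penk were also higher in both mutants, and the part of these markers in that was not tested.

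**Figure D4:**
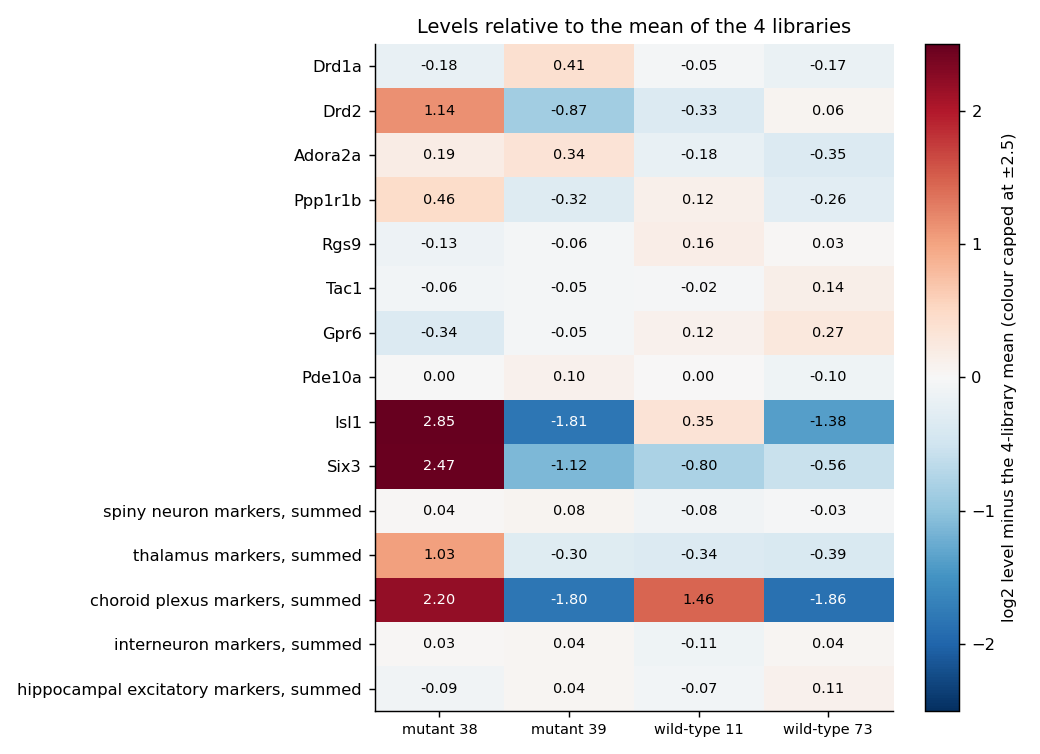
Level of each gene or summed marker list in each library (columns) as log2 difference from the mean of the 4 libraries, printed in each cell and coloured red above and blue below the mean. Mutant 38 is high for Drd2 (1.14), Isl1 (2.85), Six3 (2.47) and thalamus markers (1.03), and mutant 39 is low for Drd2 (-0.87). Isl1 and Six3 were chosen for their values, and the summed spiny neuron list that holds them is 0.04 in mutant 38 and 0.08 in mutant 39.

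Of 95 further genes of striatal dopamine signalling, taken from 9 lists, 0 passed in limma over all genes. At an unadjusted p below 0.05, 4 of them were higher and 5 lower, where 2.18% of all genes tested were higher and 1.75% lower. The median of their log2 fold changes was 0.04, beside 0.01 over all genes tested. Both mutants lay above both wild-types for 19 of them and below for 11, where 16.8% and 16.5% of all genes tested did. In the authors' deposited table, where 1.74% of all records had a p below 0.05, several records of these genes did. Whether that p is adjusted is not stated. Taking each gene's record of lowest p, it was 0.0033 for Rxrg, 0.0048 for Penk, 0.015 for Scn4b and 0.020 for Actn2. It was 0.031 for Chrm4, 0.033 for Pde1c, 0.040 for Meis2, 0.042 for Tacr3, 0.046 for Pde1a and 0.048 for Pde11a. The other listed genes named below had 0.087 (Rgs8) or more.

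Of 11 genes for the striatal G protein, adenylyl cyclase and protein kinase A, 0 had an unadjusted p below 0.05, and their log2 fold changes ran from -0.13 to 0.10. Among them Gng7, a G protein gamma subunit, had -0.13 ± 0.10, Adcy5, the main striatal adenylyl cyclase, had -0.08 ± 0.11, and Gnal, the striatal stimulatory alpha subunit, had 0.10 ± 0.15 (limma adjusted p = 0.989 for each). With 1 library left out, Gng7 ran from -0.21 (without mutant 39) to -0.05 (without mutant 38), and Adcy5 and Gnal also changed sign. Of 13 genes for kinases, phosphatases, their regulators and related phosphoproteins around DARPP-32, likewise 0 had an unadjusted p below 0.05. Ptpn5, a striatum-enriched tyrosine phosphatase, had the smallest p of them with 0.29 ± 0.15, though 0.08 without wild-type 11 and 0.50 without wild-type 73. Of 7 genes for dopamine synthesis and turnover, again 0 had an unadjusted p below 0.05. Th, the rate-limiting enzyme of dopamine synthesis, had 4.92 and 6.32 scaled read equivalents in mutants 38 and 39, against 4.97 and 10.9 in wild-types 11 and 73.

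Among relatives of Rgs9 and Pde10a, Rgs8 had an unadjusted p below 0.05 as 1 of 10 RGS genes and partners, with a log2 fold change of 0.24 ± 0.10. Of 11 other phosphodiesterase genes, Pde1c was higher and Pde11a lower at that level, with 0.51 ± 0.15 and -0.62 ± 0.22. Pde1c, a calmodulin-dependent enzyme, had 312 and 281 scaled read equivalents in mutants 38 and 39, against 210 and 206 in wild-types 11 and 73. Its groups did not overlap, as for 33.3% of all genes tested. None of the 3 passed over all genes (limma adjusted p = 0.989 for each).

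Of 9 adenosine, muscarinic and orphan receptor genes, 1 was higher and 1 lower at an unadjusted p below 0.05. The lower one was Chrm4, the muscarinic receptor of direct-pathway neurons, with 224 and 310 scaled read equivalents in mutants 38 and 39, against 363 and 402 in wild-types 11 and 73. The groups did not overlap, as for 33.3% of all genes tested. Its log2 fold change was -0.53 ± 0.18 (limma adjusted p = 0.989), or -0.30 without mutant 38. Gpr3, a relative of Gpr6 that likewise raises cyclic AMP without a ligand, had 0.42 ± 0.22, opposite in sign to Gpr6.

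Among 7 tachykinin and opioid peptide genes, Penk and Tacr3 had an unadjusted p below 0.05. Penk, the enkephalin precursor gene that marks the indirect pathway, had 235 and 222 scaled read equivalents in mutants 38 and 39, against 137 and 129 in wild-types 11 and 73. The groups did not overlap, as for 33.3% of all genes tested. Its log2 fold change of 0.78 ± 0.16 did not pass over all genes (limma adjusted p = 0.733). Tacr3, a tachykinin receptor gene, had 28.7 and 46.9 in mutants 38 and 39, against 57.6 and 101 in wild-types 11 and 73. Tacr1, which encodes the substance P receptor, had overlapping groups, with all mutant and wild-type values between 30 and 44.8.

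Of 24 genes for spiny neuron transcription factors and markers, 2 had an unadjusted p below 0.05, both lower. Rxrg, a retinoid receptor, had 30.2 and 15.5 scaled read equivalents in mutants 38 and 39, against 49.4 and 119 in wild-types 11 and 73 (log2 fold change -1.78 ± 0.50; limma adjusted p = 0.989). Actn2, an actin cross-linker, had -0.66 ± 0.19, Scn4b, a sodium channel subunit, had 0.72 ± 0.31, and Meis2, a homeobox gene, had 0.44 ± 0.20 (limma adjusted p = 0.989 for each). With 1 library left out, Rxrg ran from -2.41 (without wild-type 11) to -1.15 (without wild-type 73). Scn4b fell short of its full value when wild-type 73 (0.32) or mutant 39 (0.36) was left out, and exceeded it when mutant 38 (1.08) or wild-type 11 (1.13) was. Meis2 was 0.19 without wild-type 11, 0.25 without mutant 39 and 0.69 without wild-type 73. The mean log2 level of the choroid plexus markers was also added to the model, which leaves 1 residual degree of freedom. Rxrg (limma adjusted p = 0.0139) and Penk (0.0446) were then among the genes that passed, and 0 of the 8 genes did. Of all 18127 genes tested, 74 were then called higher and 40 lower, where 1 and 0 were without the added term.

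**Figure D5:**
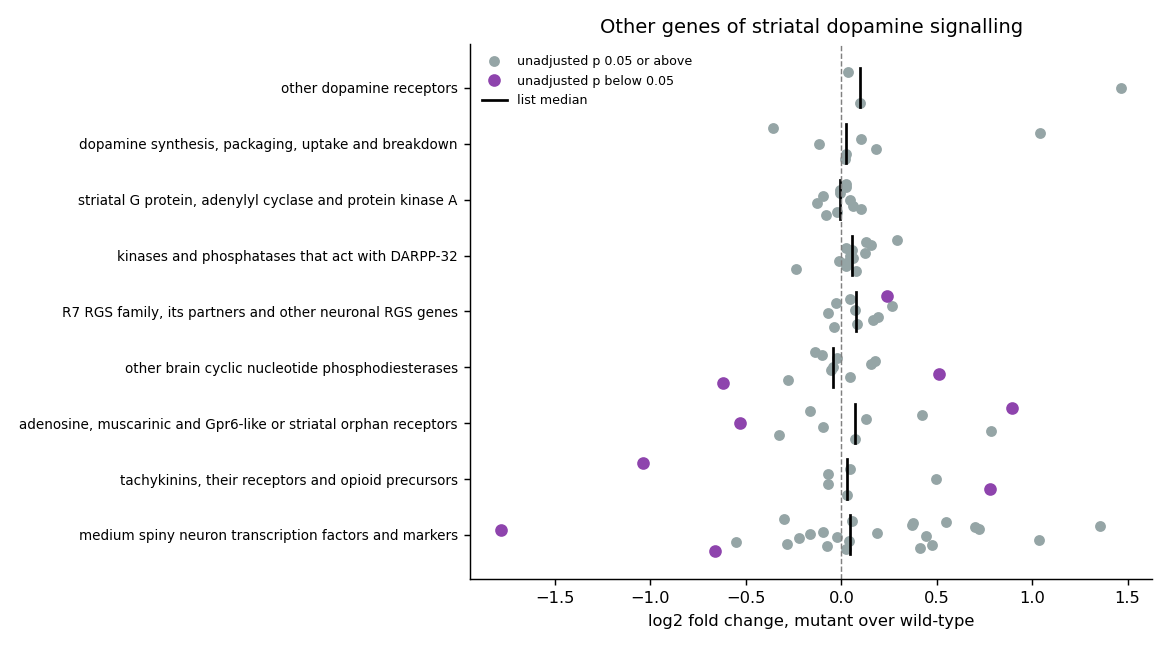
Log2 fold change of mutant over wild-type (x axis) for each of 95 further genes, by list (rows), with a bar at each list's median and genes with an unadjusted p below 0.05 in purple. The list medians lie between -0.05 and 0.10, and 4 purple genes are higher and 5 lower.

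The mean profile of the 8 genes, each centred on its own mean on the log2 scale, was 0.14 and -0.06 in mutants 38 and 39, and -0.03 and -0.05 in wild-types 11 and 73. Among 11670 other genes with a mean of at least 100 scaled read equivalents, the profiles nearest to it belonged to Elmsan1, Sptlc2, Tdrd7, Atad5 and Wdr26. Their root mean square differences from it, over 4 libraries, ran from 0.0072 to 0.011. The members themselves lay 0.11 (Pde10a) to 0.67 (Drd2) from it by the same measure, so that the mean profile stood for none of them closely.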

How the data were processed

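Values were taken from the single table the authors deposited. Its signal values are aligned bases summed over RefSeq transcripts and divided by 1 factor per library: within 0.05 of a step, 100% of the deposited values are whole multiples of a single step, and low values cluster at 42 steps. GSNAP, DESeq2 and mouse build mm9 are named without roles or versions, per the submitters' processing notes. How reads were assigned to transcripts, and whether by strand, is not given in the sources used here. The authors also deposited 1 p-value per record under a DESeq header, without stating if it is adjusted.

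Genes reaching 1 read equivalent in at least 2 libraries (all 8 members among them) were tested with limma 3.58.1 in R 4.3.3 on log2(read equivalents + 1), with a variance trend, group as the only term and Benjamini-Hochberg adjustment at 0.05. The fit was tested on simulated counts without tissue differences between libraries, with changes only in genes of higher level than Tac1, Drd2, Adora2a and Gpr6. It does not show how the fit performs with such differences or at those levels. The values are not counts, so the DESeq2 alternative was not run. A read shared by several transcripts can be in each. Members and lists were chosen with earlier results of these data known. Named are the members, Atp6ap2, in each list at most 4 genes of lowest p, of which not all are printed, and the 5 most similar genes. Outside this rule, Isl1 and Six3, picked after their values were seen, and some cell type markers are named. The result of 1 listed gene is not reported here. Tables and plots were made with Python 3.11.15 and matplotlib 3.10.9.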

Additional observations from a re-analysis of the deposited data

How the results depend on the processing

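Of 121 values of the 8 genes under the alternatives, 0 passed and 117 kept their direction. The 4 that turned all came from leaving out 1 library: Drd1a was -0.066 without mutant 39, Drd2 was -0.74 without mutant 38, and Ppp1r1b was -0.25 without mutant 38 and -0.045 without wild-type 73. With no variance trend, Adora2a had an unadjusted limma p of 0.021 and an adjusted p of 0.810. Over the single libraries left out, the log2 fold change ran from -0.066 to 0.52 for Drd1a, -0.74 to 1.28 for Drd2, 0.45 to 0.61 for Adora2a, -0.25 to 0.54 for Ppp1r1b, -0.26 to -0.12 for Rgs9, -0.20 to -0.03 for Tac1, -0.53 to -0.24 for Gpr6 and 0.045 to 0.15 for Pde10a. A fit without 1 library leaves a lone sample that is assumed to vary like the other group. Listed genes that turned likewise were Drd3 (-0.093 to 0.29), Slc6a3 (-0.27 to 2.35), Th (-0.85 to 0.14), Maob (-0.40 to 0.17), Adcy5 (-0.17 to 0.0065), Gnal (-0.087 to 0.29), Arpp21 (-0.50 to 0.024), Rgs11 (-0.0098 to 0.34), Tac4 (-0.17 to 1.17) and Tacr1 (-0.35 to 0.21). The count of all genes called, 1 higher and 0 lower in the reported fit, was 52 and 10 with no filter on low values, 8 and 4 with a robust variance prior, and 74 and 40 with the choroid plexus covariate. It was 0 and 0 with no variance trend, and 1 to 23 higher and 0 to 14 lower with 1 library left out. The causes were not tested. Drd2, Adora2a and Gpr6 had the fewest reads, which limits what these depths can show of them. No paired analysis was possible because no replicate number occurs in both groups.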
